A study of Mus musculus with 24 samples.

Results

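Tmem119 and other genes best known from microglia were followed across sorted myeloid cells of the mouse colon. The set was named in advance as Tmem119, P2ry12, Gpr34, Olfml3, Sall1 and Siglech, 6 genes selected on the measured log2 RPKM of Tmem119, which was known from these data to be much higher in tumour than in LP macrophages. Values were obtained for 5 of the 6, among 17301 genes in all. Sall1 was not analysed here. All 5 passed the filter that decided which genes were tested, a mean of at least 1 RPKM (reads relative to gene length and library depth) in at least 1 group, as did 12878 genes in all. Because the choice rested on the macrophages, the differences of these 5 genes between tumour and lamina propria macrophages are given below as a description, with no test, and so is the difference of Tmem119 between macrophages and monocytes.

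Bulk RNA sequencing libraries came from 4 sorted populations of the colonic lamina propria (LP) and from their counterparts in colon tumours, with 3 libraries for each of the 8 groups and 24 in all. The populations were F4/80hiMHCIIhi macrophages, F4/80hiMHCIIlow macrophages, Ly6Chi monocytes and Ly6Ghi neutrophils. LP cells came from mice of the strain labelled C57/BL, and tumour cells came from APC/Min mice, which carry a mutated copy of the tumour suppressor gene Apc and grow intestinal adenomas. Per the study's methods, both kinds of mice, male and female, drank dextran sodium sulphate (DSS), a colitis agent, for 1 week from an age of 6 to 8 weeks and were sampled 4 weeks later at 3 to 4 months, although the labels call the LP tissue healthy. Each library pooled tissue of 13 to 15 mice, so a library is a pool and not an animal. LP was stripped of epithelium and digested in a different way from tumours, so tissue, genotype, DSS dose and preparation cannot be told apart in any comparison of tumour with LP. Nothing in the design gives tumour-free tissue of APC/Min mice, and the bulk values cannot tell fewer expressing cells from less RNA per cell.

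Microglia are the resident macrophages of the brain, and a short list of genes is used to tell them from macrophages of other organs. TMEM119 is a transmembrane protein that serves as a microglial surface marker in mouse and human. P2RY12 is a G protein-coupled receptor for ADP that steers microglial processes towards injury and also acts on platelets, and GPR34 is a receptor for lysophosphatidylserine. OLFML3 is a secreted protein with an olfactomedin domain, and Siglec-H is a sialic acid-binding lectin that signals through the adaptor DAP12 (Tyrobp) and is also the classical marker of mouse plasmacytoid dendritic cells. In the brain, TGF-beta signalling maintains this programme.

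Tmem119 (ENSMUSG00000054675.5) lies on chr5:113793729-113800516, minus strand, in GRCm38 with GENCODE M21 annotation. Olfml3 (ENSMUSG00000027848.11) lies on chr3:103722222-103738001, minus strand, and P2ry12 (ENSMUSG00000036353.9) on chr3:59216272-59262871, minus strand, where 0.354% of its exon bases are shared with Med12l on the other strand. Gpr34 (ENSMUSG00000040229.7) lies on chrX:13632089-13640858, plus strand, within the span of Cask with no exon base in common, and Siglech (ENSMUSG00000051504.14) on chr7:55768178-55778925, plus strand. All 5 are protein-coding genes, and each value is per length of the gene's exons. The length behind the values matched that annotation for Tmem119 (2315 bases), Gpr34 (2090) and Siglech (3383), and was 4014 bases for Olfml3 and 2379 for P2ry12, against 6161 and 2546 annotated exon bases. For 3 of the 5 genes a promoter window (250 bases before to 50 after the start) was found in the RefSeq-derived table for GRCm38.p6. The P2ry12 window lies wholly before the gene span given above, at another annotated start, and its last 30 bases were not found in the transcripts of the gene, while those of Olfml3 and Siglech were. They are shown because these 3 genes followed 3 different patterns across the macrophages: Olfml3 with Tmem119, P2ry12 with Gpr34, and Siglech alone. Capitals mark the 5-letter core AGGAA of ETS-family sites such as those of PU.1, and the SMAD box CAGAC, each on either strand (as TTCCT and GTCTG on the other strand).
Olfml3, chr3:103737952-103738251, minus strand: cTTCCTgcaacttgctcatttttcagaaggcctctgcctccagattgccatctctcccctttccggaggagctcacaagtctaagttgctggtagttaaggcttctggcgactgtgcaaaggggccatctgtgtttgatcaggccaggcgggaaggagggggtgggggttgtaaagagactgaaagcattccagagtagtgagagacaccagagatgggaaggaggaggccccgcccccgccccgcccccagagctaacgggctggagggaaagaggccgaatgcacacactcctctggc
P2ry12, chr3:59262936-59263235, minus strand: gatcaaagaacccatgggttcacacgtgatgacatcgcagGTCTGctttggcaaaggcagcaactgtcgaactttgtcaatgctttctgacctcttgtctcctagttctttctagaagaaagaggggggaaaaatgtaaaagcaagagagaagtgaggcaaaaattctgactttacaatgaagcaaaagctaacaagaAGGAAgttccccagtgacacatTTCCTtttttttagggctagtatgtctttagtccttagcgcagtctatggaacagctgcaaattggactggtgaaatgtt
Siglech, chr7:55767934-55768233, plus strand: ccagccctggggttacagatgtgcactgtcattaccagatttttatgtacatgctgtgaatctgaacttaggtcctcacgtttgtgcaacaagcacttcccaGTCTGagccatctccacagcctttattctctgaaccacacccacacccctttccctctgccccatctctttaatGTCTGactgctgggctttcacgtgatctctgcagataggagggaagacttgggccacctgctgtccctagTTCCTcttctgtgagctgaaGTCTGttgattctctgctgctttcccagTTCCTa
AGGAA occurred in all 3 windows and in 66.7% of the 32851 windows of the same length in the table, and CAGAC occurred in those of P2ry12 and Siglech and in 49.6% of all windows. Siglech held 3 copies of CAGAC, P2ry12 held 1, and Olfml3 held none. The window of P2ry12 was 42.3% G and C, that of Siglech 50% and that of Olfml3 58%. These letter matches are a description of the sequence and not a record of binding.

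The libraries held 12838061 to 41718078 reads on genes. The macrophage sorting markers stood as the labels say. The F4/80 gene Adgre1 averaged 8.01 to 8.79 log2 RPKM in the 4 macrophage groups and 4.80 to 6.44 in the others, and the MHC class II gene H2-Ab1 averaged 13.24 in LP MHCIIhi against 8.28 in LP MHCIIlow macrophages and 12.58 against 10.00 in tumour. The neutrophil gene Ly6g averaged 6.01 and 8.05 in LP and tumour neutrophils and at most -0.78 in any other group, whereas Ly6c2 did not separate monocytes (6.07 in LP and 5.93 in tumour) from neutrophils (5.66 and 6.39). The fibroblast markers Col1a1, Dcn and Lum were called lower in tumour macrophages and monocytes, and the summed level of that list (13 of 15 markers with values) was 9.47 to 74.5 RPKM in LP libraries against 0.975 to 2.35 in tumour libraries, a difference that moved with every comparison of tumour with LP, and its part in the results was not tested. It was highest in LP MHCIIlow macrophages, at 23.1 to 74.5 RPKM.

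Tmem119 had its highest level in tumour macrophages of both kinds. In LP MHCIIhi macrophages the 3 libraries read 3.63, 3.77 and 3.69 log2 RPKM, and in LP MHCIIlow macrophages they read 0.79, 2.48 and 2.12. Tumour MHCIIhi macrophages read 6.41, 6.97 and 7.15, and tumour MHCIIlow macrophages read 6.28, 6.97 and 7.29. Every tumour macrophage library was above every LP macrophage library, and the macrophage kinds overlapped in the tumour but not in the LP. LP monocytes read -0.33, 1.67 and -0.43 and tumour monocytes 3.17, 3.52 and 4.23, so the tumour monocytes lay among or near the LP MHCIIhi macrophages. LP neutrophils read 0.12, 1.29 and 0.62 and tumour neutrophils 1.06, 1.47 and 1.73, which overlapped. Behind these values stood 166 to 12867 reads per macrophage library and 46 to 1128 per monocyte or neutrophil library, so none rested on a handful of reads. In order of group means, tumour MHCIIlow (6.85 ± 0.52, SD, n = 3) and tumour MHCIIhi macrophages (6.84 ± 0.39) came first and overlapped. LP MHCIIhi macrophages (3.69 ± 0.07) and tumour monocytes (3.64 ± 0.54) followed and overlapped, and then came LP MHCIIlow macrophages (1.80 ± 0.89), tumour neutrophils (1.42 ± 0.34), LP neutrophils (0.68 ± 0.59) and LP monocytes (0.30 ± 1.18), each overlapping its neighbour in that order.

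**Figure D1:**
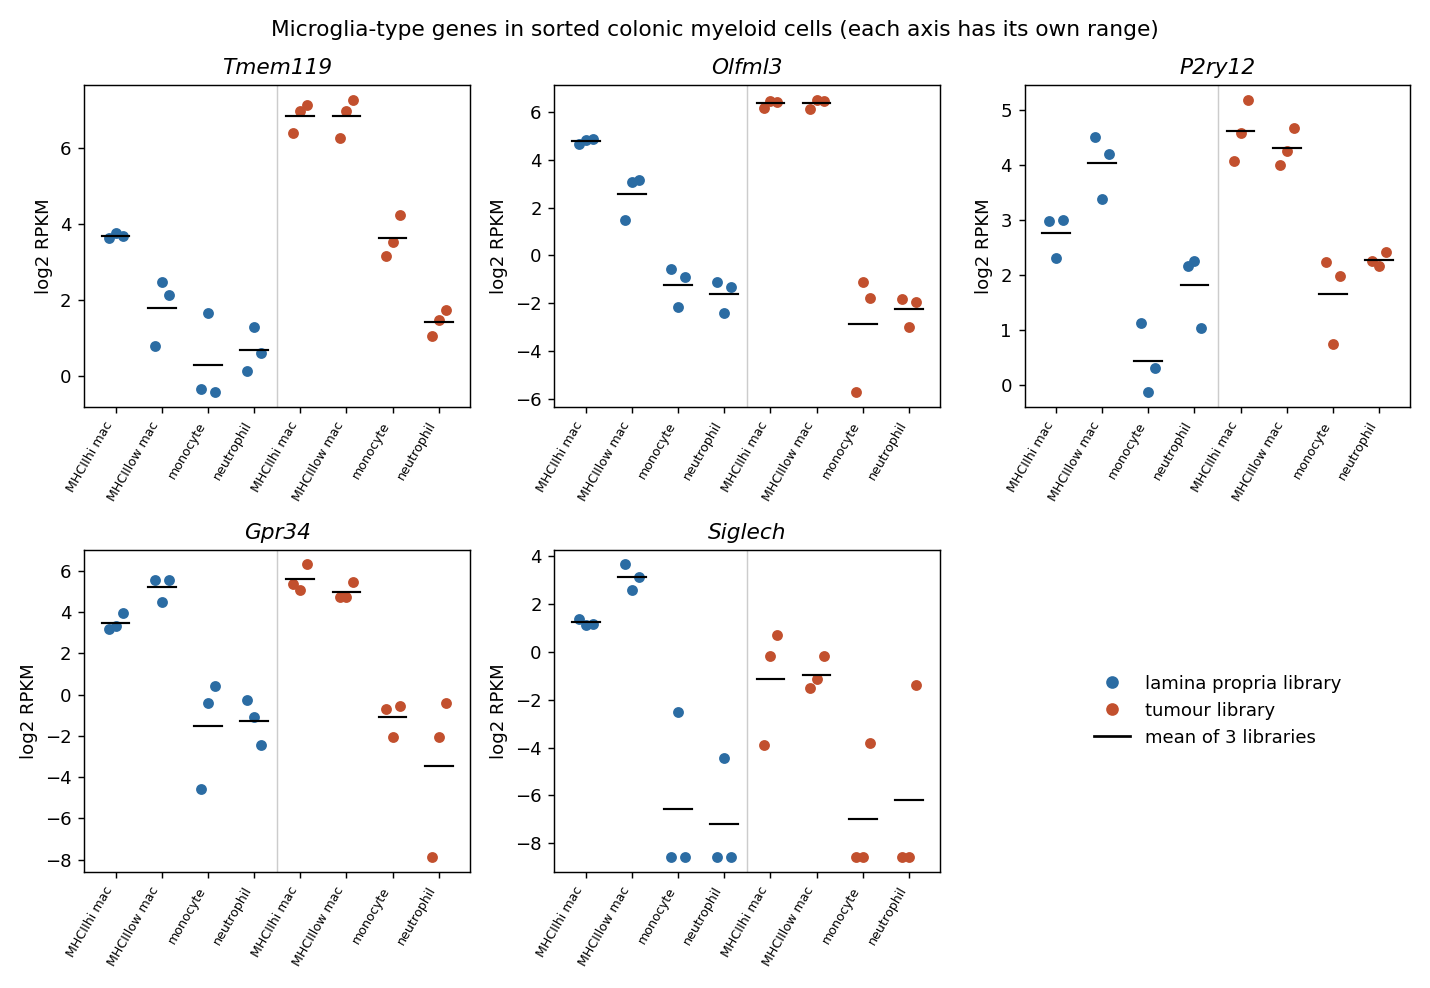
Log2 RPKM of Tmem119, Olfml3, P2ry12, Gpr34 and Siglech in each of the 24 libraries (points, blue for LP and red for tumour), with the mean of the 3 libraries of a group as a black line. The vertical axis has its own range for each gene, Tmem119 and Olfml3 are highest in tumour macrophages, and Siglech is highest in LP MHCIIlow macrophages, with a mean of 3.12.

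Olfml3 had the same order among macrophages and, unlike Tmem119, was nearly silent elsewhere. LP MHCIIhi macrophages read 4.68, 4.83 and 4.86 log2 RPKM and LP MHCIIlow macrophages 1.47, 3.07 and 3.17. Tumour MHCIIhi macrophages read 6.19, 6.48 and 6.42 and tumour MHCIIlow macrophages 6.12, 6.52 and 6.48. The tumour libraries were again all above the LP libraries, and LP MHCIIlow was below LP MHCIIhi in every library. Monocytes and neutrophils of both tissues read between -5.73 and -0.59, on 2 to 78 reads per library against 462 to 16091 in macrophages. Tumour monocytes held 2, 53 and 30 reads of Olfml3. The macrophages formed 3 separate steps (tumour of both kinds, then LP MHCIIhi, then LP MHCIIlow), and the monocyte and neutrophil groups, which followed, overlapped each other.

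P2ry12 varied less, and LP MHCIIlow macrophages stood with the tumour macrophages. They read 4.52, 3.38 and 4.21 log2 RPKM, whereas LP MHCIIhi macrophages read 2.98, 2.31 and 3.0. Tumour MHCIIhi macrophages read 4.08, 4.59 and 5.19 and tumour MHCIIlow macrophages 4.0, 4.26 and 4.68. The LP MHCIIhi macrophages were thus the low group, and the other 3 macrophage groups overlapped. LP monocytes read 1.13, -0.14 and 0.31, tumour monocytes 2.23, 0.75 and 1.98, LP neutrophils 2.17, 2.26 and 1.04, and tumour neutrophils 2.25, 2.17 and 2.43. P2ry12 was the member that neutrophils held at the highest level, on 87 to 256 reads per library.

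Gpr34 followed P2ry12 in macrophages and fell to a few reads elsewhere. LP MHCIIhi macrophages read 3.17, 3.35 and 3.97 log2 RPKM, LP MHCIIlow macrophages 5.59, 4.51 and 5.59, tumour MHCIIhi macrophages 5.39, 5.09 and 6.32, and tumour MHCIIlow macrophages 4.73, 4.72 and 5.47. LP MHCIIhi was again the low macrophage group, below every library of the other 3. Macrophage libraries held 772 to 4867 reads, whereas monocyte libraries held 2 to 102 and neutrophil libraries 0 to 42. With so few reads, the monocyte and neutrophil values of -7.88 to 0.43 log2 RPKM spread widely, and the 4 groups overlapped.

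Siglech had its highest level in LP, and among macrophages it ran against Tmem119 and Olfml3. LP MHCIIlow macrophages read 3.65, 2.57 and 3.14 log2 RPKM and LP MHCIIhi macrophages 1.37, 1.12 and 1.18. Tumour MHCIIhi macrophages read -3.89, -0.16 and 0.70, on 6, 134 and 159 reads, and tumour MHCIIlow macrophages -1.52, -1.16 and -0.17, on 31, 66 and 84 reads. Each LP macrophage library was above each tumour macrophage library. In monocytes and neutrophils 8 of the 12 libraries held no read and the other 4 held 2, 26, 6 and 10. A count of 0 allows up to 3 reads, for counting error only, so Siglech was not detectable at this depth in most of these libraries. Plasmacytoid dendritic cells, which carry Siglec-H, were looked for through 13 of 15 markers with values. Their summed level was 54.0 to 86.9 RPKM in LP macrophages and 68.6 to 91.5 in tumour macrophages, with most of it from Bst2, Tlr7 and Tlr9, which macrophages also express. Of the other 10, Tcf4 averaged 2.17 to 2.70 log2 RPKM over the macrophage groups and Runx2 -1.44 to 1.89. The remaining 8 (Ccr9, Ly6d, Spib, Klk1, Pacsin1, Cd300c, Dntt and Smim5) averaged at most 0.09 in any macrophage group. In tumour macrophages, where Siglech itself averaged -1.12 and -0.95, the highest of these 8 was Cd300c at -0.39 in MHCIIhi cells. The part of such cells in the Siglech values was not tested.

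Between tumour and LP, Tmem119 and Olfml3 were higher in tumour macrophages of both kinds, and P2ry12 and Gpr34 only had separate groups in the MHCIIhi cells. These differences used the contrast that chose the genes and carry no test. Tmem119 was 3.15 log2 units (8.87-fold) higher in tumour than in LP MHCIIhi macrophages and 5.05 log2 units (33.1-fold) higher in MHCIIlow macrophages, with a standard error of 0.49 for both. Olfml3 was 1.57 and 3.80 log2 units higher (standard error 0.79). P2ry12 was 1.86 log2 units higher in MHCIIhi macrophages and 0.28 in MHCIIlow macrophages (standard error 0.42), and Gpr34 was 2.11 higher and 0.26 lower (standard error 1.33), with overlapping groups for both genes in MHCIIlow cells. Siglech was lower in the tumour, by 2.34 log2 units in MHCIIhi and 4.07 in MHCIIlow macrophages (standard error 1.93). Siglech had the widest standard error of the 5. So 5 of the 5 genes had separate groups in the MHCIIhi cells, where 43% of all 12878 genes did and 19.5% were called by limma, and 3 of the 5 in the MHCIIlow cells, where 42.1% did and 23.3% were called. Nothing is read from these counts, since the choice of the genes used this contrast. Besides the fibroblast markers, monocyte markers summed to 58.0 to 65.5 RPKM in LP and 12.9 to 17.7 in tumour MHCIIhi macrophages (5 of 6 called lower) and to 125 to 453 and 13.1 to 21.3 in MHCIIlow macrophages (2 of 6 lower). Conventional dendritic cell markers summed to 54.6 to 77.0 and 8.47 to 19.1 RPKM in MHCIIhi (3 of 6 lower) and 10.0 to 18.3 and 5.56 to 6.81 in MHCIIlow macrophages (1 of 6 lower), and neutrophil markers to 2.33 to 12.1 and 5.18 to 17.6 in MHCIIhi (1 of 9 higher) and 1.26 to 10.4 and 25.2 to 31.0 in MHCIIlow macrophages (3 of 9 higher). Enteric glia and neuron markers summed to 0.34 to 1.22 and 0.00745 to 0.311 RPKM in MHCIIhi macrophages (1 of 2 lower). In MHCIIlow macrophages they summed to 2.07 to 5.85 and 0.00745 to 0.0268 (2 of 2 lower). Platelet markers summed to 218 to 299.8 and 132 to 175 in MHCIIhi macrophages and to 647 to 681 and 221 to 485 in MHCIIlow. Of 3 platelet markers tested 1 was called lower in each kind, and of 9 epithelial markers 1 was called higher. The part of these cells in the differences was not tested.

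**Figure D2:**
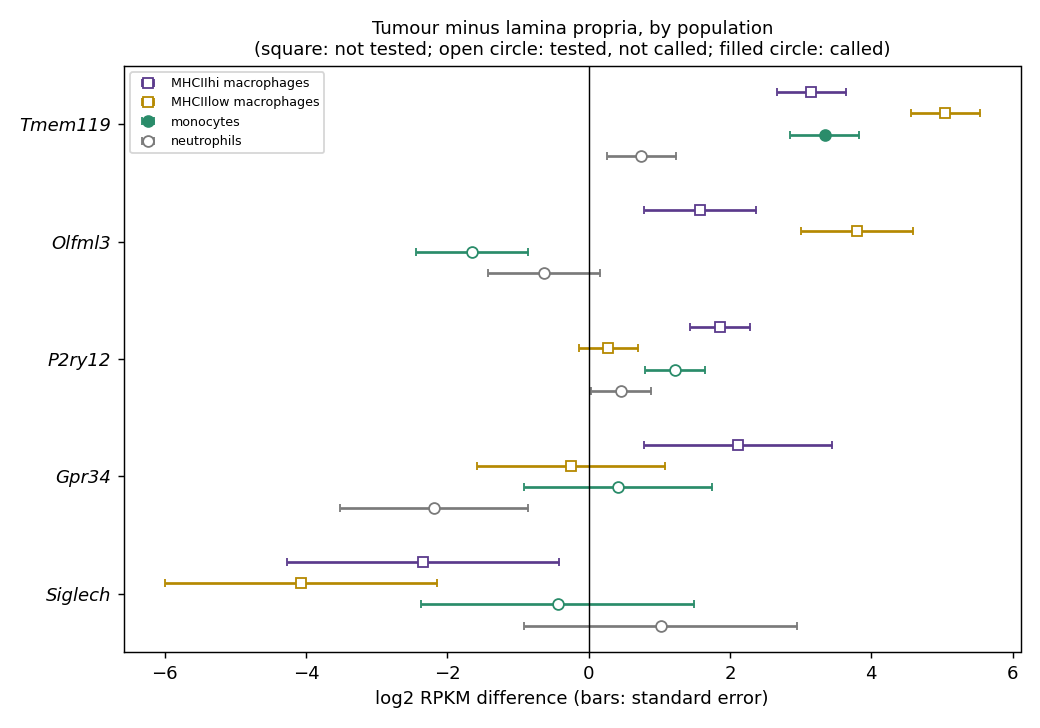
Difference in log2 RPKM between tumour and LP for each gene in each of the 4 populations, with bars of 1 standard error from limma. Squares mark differences that were not tested, open circles tests that did not pass and the filled circle the test that passed, Tmem119 in monocytes at 3.34 log2 units.

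Monocytes and neutrophils were not used in choosing the genes and could be tested. In tumour monocytes Tmem119 was 3.34 log2 units above LP monocytes (10.1-fold; standard error 0.49; adjusted p = 0.000195, limma with Benjamini-Hochberg adjustment over all 12878 genes), with each tumour library above each LP library. Of the 2 genes that averaged over 1 RPKM in monocytes, Tmem119 and P2ry12, Tmem119 was called there. Olfml3, Gpr34 and Siglech averaged under 1 RPKM in both monocyte groups, so at this depth their missed calls say nothing of a difference. Markers of other cells moved between these monocyte groups as well. The summed B and plasma cell markers stood at 157 to 575 RPKM in LP and 0.192 to 4.68 in tumour monocytes (3 of 5 tested called lower), epithelial markers at 25.1 to 213 and 128 to 332 (2 of 9 called higher) and monocyte markers at 795 to 1158 and 2491 to 3371 (0 of 6 called). The sums of conventional dendritic (38.2 to 44.5 and 10.5 to 31.1 RPKM), plasmacytoid dendritic (60.8 to 114 and 50.1 to 53.6), platelet (21.9 to 141 and 9.28 to 13.4) and enteric glia and neuron markers (0.566 to 2.02 and 0.0629 to 0.537) were also lower in each tumour library, with no single marker called. Their part in the Tmem119 difference was not tested. Of all genes 9.29% were called, 4.86% higher and 4.43% lower in the tumour, and 31.4% had groups that did not overlap. P2ry12 had a difference of 1.22 log2 units (standard error 0.42, adjusted p = 0.0784) with overlapping groups, Gpr34 of 0.42 (standard error 1.33, adjusted p = 0.911), Olfml3 of -1.65 (standard error 0.79, adjusted p = 0.225) and Siglech of -0.44 (standard error 1.93, adjusted p = 0.938). P2ry12 passed when LP pool III (1.57, adjusted p = 0.0423) or tumour pool II (1.67, adjusted p = 0.0219) of the monocytes was left out. The Tmem119 difference passed in all 14 alternative settings, at 2.52 to 4.03 log2 units and adjusted p from 9.94e-06 to 0.0417.

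To place these monocyte levels, each gene was set beside macrophage markers as a percent of its level in macrophages of the same tissue. In the tumour, the mean RPKM of Tmem119 in monocytes was 11% of that in macrophages, and P2ry12 reached 14.9%. Olfml3 reached 0.313%, Gpr34 1.23%, and the complement genes C1qa, C1qb and C1qc, classical products of tissue macrophages, 0.464%, 0.809% and 0.537%. Other macrophage markers ranged from 4.08% for Mertk and 26.3% for Adgre1 to 77.6% for Cd68 and 108% for Fcgr1. In LP monocytes Tmem119 was at 18.6% of the lower LP macrophage level, Olfml3 at 2.76%, Gpr34 at 2.80%, and C1qa, C1qb and C1qc at 0.413%, 1.10% and 0.685%. Of the other macrophage markers in LP, Cd163 was at 1.63%, Mertk at 6.42%, Mrc1 at 9.66% and Adgre1 at 17.4%. Cx3cr1 was at 25.7%, Cd68 at 58.7% and Fcgr1 at 197%, so Tmem119 lay within the range of these markers. Single monocyte libraries spread widely. Tmem119 ran from 8.79% to 37.6% in LP and from 7.6% to 15.9% in tumour, and P2ry12 from 7.52% to 18.1% and from 7.30% to 20.4%. LP monocyte pool IV was the library at 37.6%, and without it, a setting chosen after seeing the data, Tmem119 in LP stood at 9.10%. Gpr34 ran from 0.165% to 5.25% in LP and from 0.571% to 1.63% in tumour, and Olfml3 from 1.29% to 3.87% and from 0.0227% to 0.566%, so each library of Tmem119 and P2ry12 stood above each of Olfml3, Gpr34 and the C1q genes. The C1q genes were not called between tumour and LP monocytes (adjusted p = 0.0879 to 0.803). Of all 10 macrophage markers, 1 was called higher in tumour monocytes, Mertk by 1.66 log2 units (limma, adjusted p = 0.0167), and 2 were called lower. These shares were 10% and 20%, against 4.86% and 4.43% of all genes. How far macrophages carried over in the monocyte sort was not tested.

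**Figure D3:**
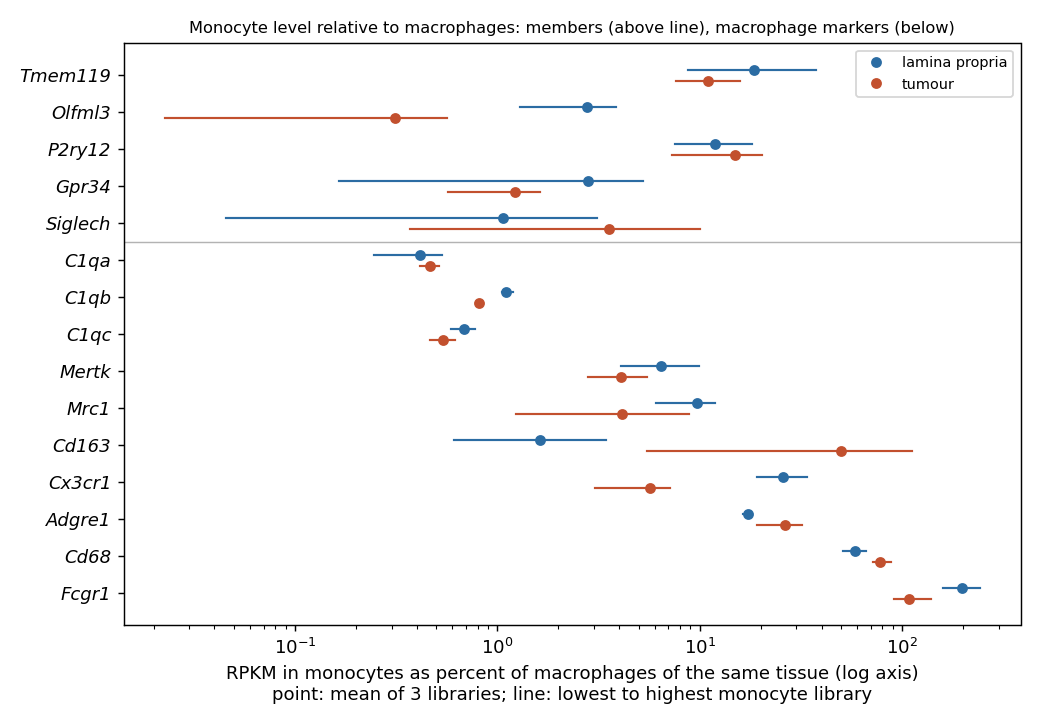
Mean RPKM in monocytes as a percent of the mean RPKM in the 6 macrophage libraries of the same tissue, on a log axis, for the 5 genes (above the grey line) and 10 macrophage markers (below it). Points are means of 3 monocyte libraries and lines run from the lowest to the highest of them, and in the tumour Tmem119 lies at 11% while Olfml3 lies at 0.313%.

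In neutrophils neither Tmem119 nor P2ry12 was called between tumour and LP by limma, where 32.2% of all genes were. Olfml3, Gpr34 and Siglech, under 1 RPKM in both neutrophil groups, were not called either, which at this depth says nothing of a difference, and none of the 5 passed an unadjusted p under 0.05. Tmem119 had a difference of 0.74 log2 units (standard error 0.49, adjusted p = 0.265), P2ry12 of 0.46 (standard error 0.42, adjusted p = 0.442), Olfml3 of -0.63 (standard error 0.79, adjusted p = 0.581), Gpr34 of -2.19 (standard error 1.33, adjusted p = 0.226) and Siglech of 1.02 (standard error 1.93, adjusted p = 0.729). Gpr34 passed without tumour neutrophil pool V, at -3.71 (adjusted p = 0.0392), on 42 reads or fewer per library. The median gene was 0.12 log2 units lower in tumour neutrophils, and 0.12 higher with libraries centred on their medians. The step from LP to tumour was also compared between monocytes and neutrophils, a test chosen after seeing the data, and it was 2.60 log2 units larger in monocytes for Tmem119 (standard error 0.69, adjusted p = 0.0221), where 9.11% of all genes were called, and not called for the other 4 genes (adjusted p = 0.424 to 0.791). The Tmem119 call was lost in 6 of 20 alternatives, among them voom (adjusted p = 0.256) and the libraries compared alone (adjusted p = 0.0778), the other 4 each leaving out 1 library.

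Within the LP, the macrophage kinds split the 5 genes into opposite directions. Tmem119 was 1.90 log2 units lower in MHCIIlow than in MHCIIhi macrophages (3.72-fold; standard error 0.49), a description with no test, since the gene was chosen on these macrophage libraries. Olfml3 was 2.22 log2 units lower (standard error 0.79, adjusted p = 0.102). P2ry12 was 1.27 log2 units higher in MHCIIlow macrophages (standard error 0.42, adjusted p = 0.0738), Gpr34 was 1.74 higher (standard error 1.33, adjusted p = 0.537) and Siglech 1.90 higher (standard error 1.93, adjusted p = 0.679). None of the 4 tested genes passed by limma, where 7.7% of all genes did (2.13% higher and 5.57% lower), while Olfml3 and P2ry12 passed an unadjusted p under 0.05. The 3 libraries of each kind did not overlap for any of the 5 genes, as for 32.5% of all genes. The errors of Olfml3, Gpr34 and Siglech include the spread of the nearly empty monocyte and neutrophil libraries. With voom on whole reads, which gives low counts less weight, and on the log2(RPKM + 1) scale all 4 passed. By voom Olfml3 (-2.42, adjusted p = 1.64e-05) was lower and P2ry12 (1.36, adjusted p = 0.00897), Gpr34 (1.78, adjusted p = 0.00288) and Siglech (1.98, adjusted p = 0.00383) were higher. P2ry12 also passed without LP MHCIIlow pool III (1.60, adjusted p = 0.0353). Without 1 library the Tmem119 difference ran from -2.24 to -1.39, and with the pool as a fixed replicate block it was -1.53. Conventional dendritic cell markers summed to 54.6 to 77.0 RPKM in LP MHCIIhi and 10.0 to 18.3 in LP MHCIIlow macrophages (3 of 6 tested called lower), and monocyte markers to 58.0 to 65.5 and 125 to 453 (1 of 6 higher and 1 lower). Plasmacytoid dendritic cell markers summed to 76.6 to 86.9 and 54.0 to 77.5 RPKM, which overlapped (2 of 11 called lower and 0 higher). Epithelial markers (6.64 to 19.6 and 20.5 to 35.9 RPKM, 0 of 9 called), enteric glia and neuron markers (0.34 to 1.22 and 2.07 to 5.85, 0 of 2 called) and mast cell markers (3.86 to 5.73 and 1.05 to 3.71, 1 of 8 called lower) separated the kinds as well. The part of all these in the differences was not tested. LP MHCIIlow pool II was the lowest library for Tmem119 and Olfml3 and the highest for P2ry12 and Siglech.

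In the tumour none of the 4 genes tested was called between the macrophage kinds. The difference between MHCIIlow and MHCIIhi macrophages was 0.00 log2 units for Tmem119 (standard error 0.49, not tested), 0.01 for Olfml3 (standard error 0.79, adjusted p = 1), -0.31 for P2ry12 (standard error 0.42, adjusted p = 0.939), -0.63 for Gpr34 (standard error 1.33, adjusted p = 0.997) and 0.17 for Siglech (standard error 1.93, adjusted p = 1). The groups overlapped for all 5, where 17.6% of all genes had separate groups and 1.13% were called by limma. None of the 4 passed an unadjusted p under 0.05 or the test by voom. Within each of the 3 pools that gave both kinds, Gpr34 and P2ry12 were lower in MHCIIlow cells, and with the pool as a fixed replicate block neither was called (-0.63, adjusted p = 0.975, and -0.31, adjusted p = 0.734). Siglech averaged 0.862 and 0.562 RPKM in tumour MHCIIhi and MHCIIlow macrophages, so at this depth its missed call says nothing of a difference. These tests do not show that the kinds were equal.

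**Figure D4:**
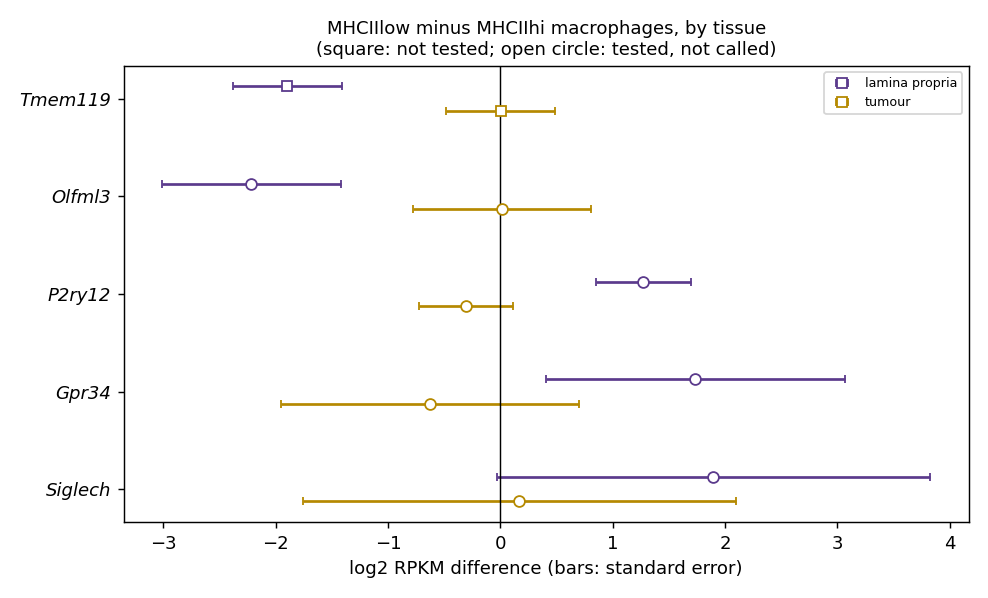
Difference in log2 RPKM between MHCIIlow and MHCIIhi macrophages within LP and within tumour for each gene, with bars of 1 standard error from limma. Squares were not tested and open circles were tested and not called. In LP Tmem119 (-1.90) and Olfml3 lie left of 0 and P2ry12, Gpr34 and Siglech right of it, and in the tumour all 5 lie within 1 standard error of 0.

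The step from LP to tumour was also set side by side between the macrophage kinds, as a description with no test, since it is made of the differences that chose the genes. The difference of the steps (MHCIIlow minus MHCIIhi) was 1.90 log2 units for Tmem119 (standard error 0.69), 2.23 for Olfml3 (standard error 1.12), -1.58 for P2ry12 (standard error 0.60), -2.36 for Gpr34 (standard error 1.88) and -1.73 for Siglech (standard error 2.73). Of all genes 1.46% were called by limma in that comparison, and nothing is read from it for the 5.

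Against monocytes of the same tissue, P2ry12 was higher in macrophages of both kinds. The difference was 2.33 and 3.60 log2 units in LP (adjusted p = 0.00048 and 2.08e-06) and 2.97 and 2.66 in tumour (adjusted p = 1.37e-05 and 5.3e-05, MHCIIhi then MHCIIlow, standard error 0.42). The share of all genes called was 20.1% and 29.5% for LP MHCIIhi and MHCIIlow macrophages and 32.1% and 32% for their tumour counterparts, of which 9.26%, 11.9%, 13.6% and 13.6% were higher in macrophages. Olfml3, Gpr34 and Siglech averaged under 1 RPKM in monocytes and passed the filter on low values through their macrophage levels, so they were not tested here and their levels are a description. Olfml3 averaged 17.2 RPKM in LP macrophages and 0.475 in LP monocytes, and 82.9 and 0.26 in tumour. Gpr34 averaged 25.6 and 0.718 RPKM in LP and 42.2 and 0.519 in tumour, and Siglech 5.73 and 0.0608 in LP and 0.712 and 0.0254 in tumour. The fitted sizes of these 3 genes rest on nearly empty monocyte libraries: without tumour monocyte pool I, which held 2 reads, the Olfml3 difference in tumour went from 9.23 and 9.24 log2 units to 7.80 and 7.81, and without LP monocyte pool III, which also held 2 reads, the Gpr34 difference in LP went from 5.00 and 6.74 to 3.47 and 5.21. For Tmem119 the same differences, not tested, were 3.40 and 1.5 log2 units in LP, with overlapping groups for the second, and 3.20 and 3.20 in tumour.

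Between neutrophils and monocytes Tmem119 was called in the tumour and P2ry12 in the LP, and both LP values turned on 1 monocyte library. Tmem119 was 2.22 log2 units lower in tumour neutrophils than in tumour monocytes (4.67-fold; standard error 0.49; adjusted p = 0.000619), and 0.38 higher in LP (standard error 0.49, adjusted p = 0.532). Without LP monocyte pool IV that LP difference was 1.06 and called (adjusted p = 0.0489). P2ry12 was 1.39 log2 units higher in LP neutrophils (standard error 0.42, adjusted p = 0.00891) with 1 monocyte library within the neutrophil range, and this call was lost with voom (adjusted p = 0.0789), with the 6 libraries alone (adjusted p = 0.0623) and without LP monocyte pool IV (adjusted p = 0.0528). In the tumour it was 0.63 higher (standard error 0.42, adjusted p = 0.212). Of Tmem119 and P2ry12, 1 was called in each tissue, where 54.5% of all genes were called in LP and 58.1% in tumour. Olfml3, Gpr34 and Siglech, under 1 RPKM in these groups, were not called (limma, adjusted p = 0.689 to 0.895 in LP and 0.135 to 0.748 in tumour). Gpr34 was 2.36 log2 units lower in tumour neutrophils. Without tumour neutrophil pool V it passed, at -3.88 (limma, adjusted p = 0.0172), on few reads per library. The median gene was 0.24 log2 units lower in LP neutrophils and 0.36 lower in tumour neutrophils than in monocytes. With centred libraries it was 0.05 and 0.09 higher. With libraries centred on their medians, P2ry12 passed in the tumour as well (1.08, adjusted p = 0.0389).

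Over the 12 macrophage libraries the genes moved in 2 groups and 1 outsider. Pearson's r was 0.97 between Tmem119 and Olfml3 and 0.93 between P2ry12 and Gpr34, while Tmem119 with P2ry12 gave 0.44 and Olfml3 with Gpr34 gave 0.07. Siglech gave -0.80 with Tmem119 and -0.82 with Olfml3. Over all 24 libraries every pair was positive, from 0.44 to 0.81. These values describe libraries that share groups, pools and preparation.

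Among 10919 other named genes, those whose log2 RPKM followed Tmem119 most closely over 24 libraries were Lair1 (r = 0.92), Gpr65 (0.92), Tm7sf3 (0.91), Mmp12 (0.90) and Ppfia4 (0.90). Lair1 encodes an inhibitory collagen receptor, Gpr65 a proton-sensing receptor and Mmp12 the macrophage elastase. Lair1 averaged 4.98 and 4.95 log2 RPKM in LP MHCIIhi and MHCIIlow macrophages, 6.83 and 6.23 in their tumour counterparts, and 2.87 and 4.55 in LP and tumour monocytes. Within the 12 macrophage libraries Parvg, Pigs, Sirpa and Bin2 were among the closest (r = 0.99 for each). The voltage-gated proton channel gene Hvcn1 (0.97), the receptor tyrosine kinase gene Axl (0.97) and the complement gene C6 (0.94) were closest to Olfml3. For P2ry12 they were the organic anion transporter gene Slco2b1 (0.91), the urokinase gene Plau (0.89) and the lysosomal galactosylceramidase gene Galc (0.89), and for Gpr34 Slc9a9 (0.93), Ms4a7 (0.92) and Nfic (0.92). Siglech was closest to Zfp105, Fxyd2 (0.88 each) and the folate receptor gene Folr2 (0.87), and Folr2 averaged 5.30 and 8.17 log2 RPKM in LP MHCIIhi and MHCIIlow macrophages against 2.66 and 4.23 in tumour. By Spearman's rho, 1 of the 5 names was kept for Tmem119 over 24 libraries and 3 of 5 over macrophages, 2 of 3 for P2ry12 and Siglech and 0 of 3 for Gpr34 and Olfml3, so the ranking beyond the leading pattern depends on the measure.

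Of a list of 50 further microglial genes, 45 were tested, and more rose than fell in tumour macrophages. In MHCIIhi macrophages 11 were higher and 6 lower (24.4% and 13.3% of the list, against 8.01% and 11.5% of all genes), with a median difference of 0.39 log2 units against 0.00 for all genes tested. In MHCIIlow macrophages 11 were higher and 4 lower (24.4% and 8.89%, against 11.5% and 11.8% of all genes), with a median of 0.19 against 0.06. Cx3cr1, the fractalkine receptor gene, rose by 3.75 and 3.21 log2 units (MHCIIhi, then MHCIIlow), Golm1 by 2.59 and 2.14, the phagocytic receptor gene Mertk by 2.50 and 1.96, and the ADP receptor gene P2ry13 by 2.39 and 1.04. The list is not particular to microglia and includes genes used above as macrophage markers, among them Cx3cr1, Mertk, C1qa and C1qc. Sparc, a matrix protein gene also made by fibroblasts, fell by 4.31 and 5.36, beside the lower fibroblast markers described above, whose part in this was not tested, and the adenosine receptor gene Adora3 fell by 2.22 and 1.59. In monocytes 3 of the 45 rose (Mertk by 1.66, Cd33 by 0.99 and Gpr84 by 0.68) and 4 fell (Plxdc2, Sparc, Lgmn by 1.30 and Cd164 by 0.79), shares of 6.67% and 8.89% against 4.86% and 4.43% of all genes, with a median of 0.24 against 0.00. In neutrophils 7 were higher and 14 lower (15.6% and 31.1%, against 13.1% and 19% of all genes), with a median of 0.11 against -0.12. The balance of all genes turned with libraries centred on their medians, at 2375 higher and 1788 lower against 1690 and 2452. The list's counts are given without that centring. Conventional dendritic cell markers summed to 94.1 to 189 RPKM in LP and 2.95 to 20.6 in tumour neutrophils (4 of 6 called lower), B and plasma cell markers to 358 to 1300.3 and 0.66 to 20.1 (3 of 5 lower) and epithelial markers to 20.0 to 74.5 and 178 to 338 (2 of 9 higher). The sums of neutrophil, monocyte and mast cell markers were higher, and those of macrophage, plasmacytoid dendritic, platelet and fibroblast markers lower, in each tumour neutrophil library, and the part of these in the list's differences was not tested. Between the LP macrophage kinds 1 was higher and 9 were lower in MHCIIlow cells (2.22% and 20%, against 2.13% and 5.57% of all genes), among them Lpcat2 by 1.72 and Entpd1 by 1.30. The list median there was -0.06 against -0.03. Against LP monocytes, 23 of the 45 were called higher and 4 lower in LP MHCIIhi macrophages (51.1% and 8.89%, against 9.26% and 10.8% of all genes).

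**Figure D5:**
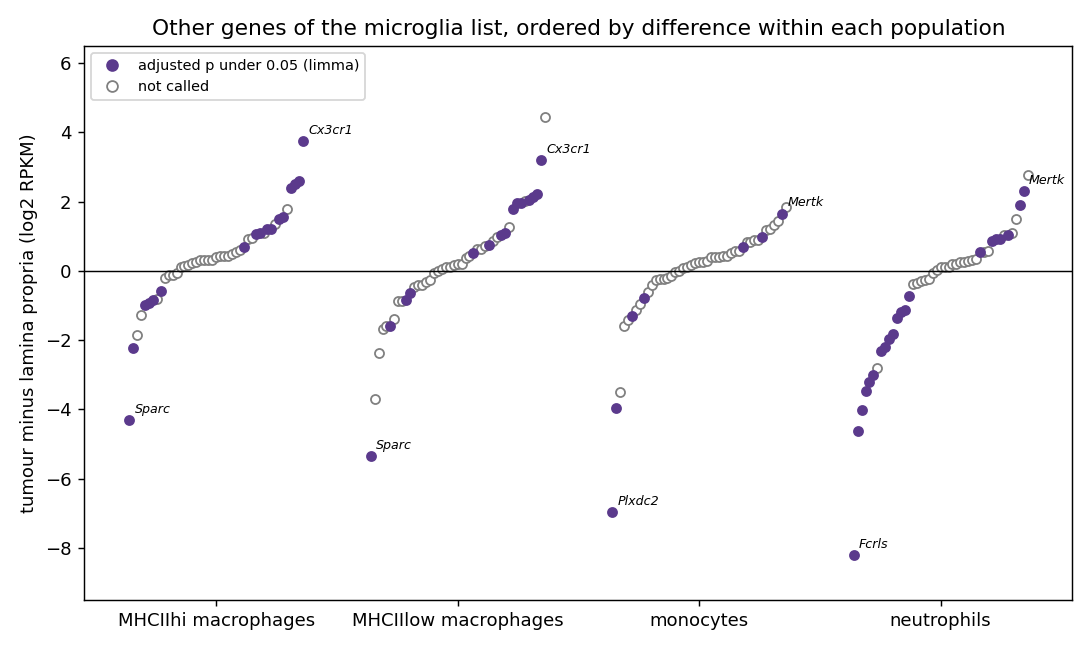
Tumour minus LP difference in log2 RPKM for the 45 tested genes of the microglia list, ordered by size within each of the 4 populations. Filled points passed the limma test at an adjusted p under 0.05 and open points did not, and Cx3cr1 is the highest called gene in both macrophage kinds, at 3.75 and 3.21.

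Relatives of P2RY12 and GPR34 did not move as a block. Of 14 other P2Y, lysophosphatidylserine and related receptor genes, 12 were tested. In tumour MHCIIhi macrophages 2 were higher (P2ry13 by 2.39 and Gpr65 by 0.98) and 5 lower (16.7% and 41.7%, against 8.01% and 11.5% of all genes), among them the UDP receptor gene P2ry6 by 0.98 and the UTP receptor gene P2ry2 by 1.12. In MHCIIlow macrophages 3 were higher and 2 lower (25% and 16.7%, against 11.5% and 11.8% of all genes), with Gpr65 up by 1.5, P2ry13 up by 1.04, P2ry2 down by 1.59 and P2ry6 down by 0.83. The list's median was -0.86 log2 units in MHCIIhi and 0.14 in MHCIIlow macrophages, against 0.00 and 0.06 for all genes tested. P2ry13 averaged 3.68 and 4.34 log2 RPKM in LP MHCIIhi and MHCIIlow macrophages, 6.07 and 5.39 in tumour and 5.13 and 6.07 in LP and tumour neutrophils. In LP, 5 of the 12 were lower in MHCIIlow than in MHCIIhi macrophages and none was higher (41.7% and 0%, against 5.57% and 2.13% of all genes).

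Among the Siglec genes other than Siglech, Siglece was called in both macrophage kinds. Of 9 tested genes of that list, which includes the adaptors, 2 were higher and none lower in tumour macrophages of both kinds: Siglece by 0.91 and 1.69 log2 units and Tyrobp, the adaptor through which Siglec-H signals, by 1.08 and 1.10. That is 22.2% of the list in each kind, where 8.01% and 11.5% of all genes were higher. Siglec1, the sialoadhesin gene, averaged 0.46 and 1.38 log2 RPKM in LP MHCIIhi and MHCIIlow macrophages and 1.84 and 1.17 in tumour, and Cd22 averaged 3.27, 2.03, 3.78 and 2.88 in the same order. Neither passed in tumour against LP macrophages (adjusted p = 0.481 to 0.962). The list's median was 0.51 and 0.27 log2 units. In LP, Siglece was 1.27 lower in MHCIIlow macrophages, where Siglech was at its highest. Of the olfactomedin-domain relatives of Olfml3, 3 were tested, and Olfml2b was called higher in tumour MHCIIhi macrophages (limma, adjusted p = 0.000351). That is 33.3% of the list, where 8.01% of all genes were higher, and none of the 3 was called in MHCIIlow macrophages. Olfml2b had 88 to 476 reads per library against 0 to 58 in LP, so the size of its difference is imprecise. Of the Sall family, Sall2 had values and averaged at most -0.97 log2 RPKM in any group.

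Genes of TGF-beta signalling, the pathway that maintains these genes in brain, changed in both directions. Of 32 genes 28 were tested, and 4 were higher and 5 lower in tumour MHCIIhi macrophages, 3 higher and 4 lower in MHCIIlow macrophages and 4 higher and 1 lower in monocytes. The shares, 14.3% and 17.9%, 10.7% and 14.3%, and 14.3% and 3.57%, stood beside 8.01% and 11.5%, 11.5% and 11.8%, and 4.86% and 4.43% of all genes. The receptor gene Tgfbr2 was 1.17 log2 units higher in MHCIIhi macrophages (adjusted p = 0.000373) and 0.95 higher in monocytes (adjusted p = 0.00524), with 0.17 in MHCIIlow macrophages (adjusted p = 0.631). Tgfbr1 had differences of 0.42, 0.43 and -0.20 in MHCIIhi macrophages, MHCIIlow macrophages and monocytes (adjusted p = 0.0895, 0.0729 and 0.558). Smad2, Smad3, Smad4 and Smad7 were not called in any of the 3 comparisons. Pmepa1, a target gene that feeds back on the pathway, rose by 1.55 and 1.29 in the macrophage kinds, Ski by 0.65 and 0.55, and the co-receptor gene Eng fell by 2.84 and 3.30.

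Of 24 transcription factor genes of myeloid cells, all tested, 7 were higher and 4 lower in tumour MHCIIhi macrophages and 3 higher and 6 lower in MHCIIlow macrophages. The shares were 29.2% and 16.7%, and 12.5% and 25%, against 8.01% and 11.5%, and 11.5% and 11.8% of all genes. Mef2c, which encodes a factor of the microglial programme, rose by 1.55 in MHCIIhi macrophages (adjusted p = 0.0159), with 0.21 in MHCIIlow macrophages (adjusted p = 0.794). Maf, a macrophage identity factor gene, rose by 1.37 in MHCIIhi macrophages, with -0.53 in MHCIIlow macrophages (adjusted p = 0.397), and in LP it was 1.74 higher in MHCIIlow than MHCIIhi macrophages, the direction of P2ry12, Gpr34 and Siglech. Bhlhe40 went the other way in LP, 1.44 lower in MHCIIlow macrophages, and rose by 1.28 from LP to tumour in those cells, with 0.21 in MHCIIhi macrophages (adjusted p = 0.484). Irf4 fell by 1.98 and 4.96 in the macrophage kinds. Of 25 genes of the disease-associated state of microglia, 24 were tested, and 2 were higher and 3 lower in tumour MHCIIhi macrophages against 10 higher and 5 lower in MHCIIlow macrophages. The shares were 8.33% and 12.5%, and 41.7% and 20.8%, against 8.01% and 11.5%, and 11.5% and 11.8% of all genes. Itgax rose by 3.37 in MHCIIlow macrophages, with 0.53 in MHCIIhi macrophages (adjusted p = 0.379), and Spp1, the osteopontin gene, by 2.31, with 0.53 (adjusted p = 0.521). Csf1 rose by 2.18 in MHCIIhi and 2.87 in MHCIIlow macrophages, while Gpnmb fell by 2.78 and 1.5 and Lgals3 by 2.21 and 1.48 in MHCIIhi and MHCIIlow macrophages.

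Platelets carry P2RY12, and their markers were checked beside it. The platelet and megakaryocyte list (8 of 11 markers with values) summed to 647 to 681 RPKM in LP MHCIIlow, 218 to 299.8 in LP MHCIIhi, 132 to 175 in tumour MHCIIhi and 221 to 485 in tumour MHCIIlow macrophages, nearly all of it Pf4 and Ppbp. Pf4 averaged 9.30 log2 RPKM in LP MHCIIlow macrophages and 7.88 in LP MHCIIhi macrophages. The defining platelet genes Itga2b, Gp1ba, Gp5 and Treml1 averaged at most -1.09 log2 RPKM in any macrophage group, on 91 reads or fewer per library, and Gp9 and Clec1b at most 0.45, on 203 reads or fewer. The summed level moved with P2ry12 between the LP macrophage kinds. From LP to tumour the sum was lower in both kinds. P2ry12 was there 1.86 log2 units higher in MHCIIhi macrophages and 0.28 higher in MHCIIlow macrophages, the latter with overlapping groups. The part of platelets in these P2ry12 differences was not tested.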

How the data were processed

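Bulk RNA was measured in 24 libraries of sorted colonic myeloid cells. Per the labels and the study's methods, SMARTSeq v2 cDNA (with changes) was read from both ends, and the authors aligned reads with STAR 2.3 to GRCm38 (mm10) with GENCODE genes, counted them with featureCounts 1.5 and dropped genes averaging under 10 reads in all populations; edgeR is also named in the submitters' processing notes, and strandedness is not given in the sources used here. The deposited values were log2 RPKM per gene and library, made by the authors with a prior count of 0.25 reads as read from the values. All 415224 values gave whole reads within 0.001 reads, which summed to 12838061 to 41718078 per library; the library sizes behind the RPKM were 0.466 to 1.51 times these sums, so the authors' scaling was not by reads on genes alone, and a gene with few reads is imprecise, and reads were not counted as molecules. Names were matched for 17190 of 17301 genes.

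Groups came from the labels. Differences were tested with limma 3.58.1 (R 4.3.3; trend; two-sided) on the log2 RPKM of all 24 libraries, with 1 mean per group, over the 12878 genes whose mean reached 1 RPKM in any group, with Benjamini-Hochberg adjustment over those genes and a threshold of 0.05. The 5 genes were not tested in tumour against LP macrophages or in the difference of those steps, since these values chose the set. For the same reason Tmem119 was not tested between macrophage groups or in macrophages against monocytes. Olfml3, Gpr34 and Siglech were not tested in macrophages against monocytes, since they averaged under 1 RPKM in monocytes and passed the filter through macrophages. With 3 libraries against 3, an exact permutation test cannot go below p = 0.1. The code was tested on simulated data. Between 14 and 20 alternatives per comparison were run: pseudocounts of 1 and 0.1 RPKM, no filter, a minimum of 5 RPKM, centred libraries, only the libraries compared, pool blocks, voom on whole reads and each library left out. Libraries with the same pool number within a tissue came from the same donors per the labels; the deviations of 29 such pairs correlated at -0.066 to 0.255 (median 0.0169), and the within-pool correlation in limma was 0.0476.

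The genes and lists were chosen with earlier results of these data known. Genes named beside the 6 were those with the highest Pearson r and, from each list, up to 4 per direction and comparison with the largest called difference and separate groups, with the receptor families, Siglecs, Tyrobp, TGF-beta receptors and Smads named whatever their values. Sall1 was not analysed here. Some list genes that meet this rule are not reported here. Sequences came from a RefSeq-derived table for GRCm38.p6; windows of Tmem119 and Gpr34 were not used here.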

Additional observations from a re-analysis of the deposited data

Results flagged for a closer look

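The step of Tmem119 from LP to tumour differed between monocytes and neutrophils, which drew attention because the difference itself passed a test. It rose by 3.34 log2 units in monocytes and had a difference of 0.74 in neutrophils, and the difference of these steps was 2.60 log2 units (standard error 0.69; adjusted p = 0.0221, limma; 24 libraries). This comparison was added after seeing the data. It passed in 14 of 20 alternatives (adjusted p = 0.00203 to 0.256). The call was lost with voom on whole reads (2.41, adjusted p = 0.256), with only the libraries compared (adjusted p = 0.0778) and without LP monocyte pool III or V, LP neutrophil pool IV or tumour monocyte pool V (2.23 to 2.3 log2 units, adjusted p = 0.0506 to 0.0646).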

How the results depend on the processing

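Of 570 alternative values of the 37 tested differences of the 5 genes, 516 kept their direction and their side of the threshold, 9 lost the call, 17 gained it and 28 changed sign; those 28 belong to 12 differences and none was called in either setting. With log2(RPKM + 1) the sign changed for Gpr34 between tumour and LP monocytes (-0.11) and LP neutrophils and monocytes (-0.14), Olfml3 between tumour neutrophils and monocytes (-0.029) and Siglech between the tumour macrophage kinds (-0.17), with log2(RPKM + 0.1) for Gpr34 between LP neutrophils and monocytes (-0.077) and Siglech between the tumour macrophage kinds (-0.0799), and with centred libraries for Olfml3 between the tumour macrophage kinds (-0.026). Without 1 library Gpr34 ran from -1.11 to 1.39 (tumour against LP monocytes), -3.71 to 0.028 (the same in neutrophils) and -1.29 to 1.21 (LP neutrophils against monocytes), Olfml3 from -0.075 to 0.14 (tumour macrophage kinds), -0.82 to 1.5 (tumour neutrophils against monocytes) and -1.91 to 0.41 (monocyte minus neutrophil step), and Siglech from -2.03 to 1.59 (tumour against LP monocytes), -1.38 to 2.40 (the same in neutrophils), -1.22 to 1.08 (tumour macrophage kinds), -2.03 to 1.38 (LP neutrophils against monocytes), -1.59 to 2.40 (the same in tumour) and -3.05 to 0.95 (the difference of steps). Of 510 values with no test, 493 moved by less than the spread between libraries. The number of tested genes called between LP MHCIIlow and MHCIIhi macrophages, 0, became 4 with log2(RPKM + 1) and with voom, 1 with log2(RPKM + 0.1) and with only the libraries compared, stayed 0 with the fixed replicate block and was 0 to 1 without 1 library. For neutrophils against monocytes it went from 1 to 0 in LP with only the libraries compared and with voom, and from 1 to 2 in tumour with centred libraries, and was 1 to 2 there without 1 library. Without 1 library it was 1 to 2 between tumour and LP monocytes and 0 to 1 between tumour and LP neutrophils. The causes were not tested. The replicate block, fixed or random, changed no call in the tests where it was run.

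Counts over all genes also moved, from 991 to between 523 and 1840 (LP MHCIIlow against MHCIIhi macrophages), from 146 to between 4 and 241 (the same in tumour), from 188 to between 80 and 539 (the difference of the steps), from 1197 to between 768 and 1764 (tumour against LP monocytes), from 2588 to between 1903 and 4075 (LP MHCIIhi macrophages against monocytes), from 2511 to between 1858 and 3797 (tumour against LP MHCIIhi macrophages) and from 4142 to between 2366 and 4249 (tumour against LP neutrophils). Depth limits Siglech, Gpr34 and Olfml3 in monocytes and neutrophils, where every library held under 103 reads of each gene.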
